A study of Mus musculus with 9 samples.

Results

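The detrusor is the smooth muscle coat that empties the bladder, and the stroma is the connective tissue layer beneath the lining epithelium, the urothelium. Transcript levels in these 2 layers of the newborn mouse bladder were compared on 6 of the 9 arrays of the study, chosen because their labelled tissue source was detrusor (3 arrays) or stroma (3 arrays). All 13064 genes that passed a filter on dim probes were compared, and the levels of the 3 urothelium arrays are given beside them to show which stroma transcripts are also abundant in the epithelium. The test was 1 fit over all 9 arrays, so each SE and p-value also carries the spread of the urothelium arrays. A wide SE therefore need not mean scatter within detrusor or stroma. Each layer was cut from frozen sections by laser capture, and its RNA was amplified in 2 rounds, labelled with biotin and hybridised unpooled to an Affymetrix MOE430 array. Every mouse was of the FVB/N strain, of unrecorded sex and at Theiler stage 27, and every mouse, in all layers alike, carried the SMGA/EGFP transgene, a smooth muscle gamma actin reporter, so no array comes from a mouse without it. Detrusor 1 and detrusor 2 came from postnatal day 1 and detrusor 3 from day 2, whereas stroma 1 came from day 1 and stroma 2 and stroma 3 from day 2. The labels do not tie arrays to animals, so layers may share an animal, and p-values reflect no more than how far these arrays differ, a difference that may be technical.

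Smooth muscle of the bladder contracts when parasympathetic nerves release acetylcholine and ATP, which raise calcium inside the cell. Calcium enters through membrane channels and leaves the sarcoplasmic reticulum, and relaxation follows when cyclic nucleotides lower it again. During development the urothelium releases Sonic hedgehog, and the mesenchyme next to it answers through the receptor Patched, while muscle forms in the mesenchyme farther out.

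Levels are given as log2(intensity + 39.3), where the added value, the 20th percentile of all probe set intensities, keeps dim probes from dominating, so that differences of dim genes are understated. The 5 genes taken as markers of the comparison, chosen with earlier results known, all passed the test in the direction their layer calls for. Trdn, P2rx1 and Pln were higher in detrusor, and Ptch1 and Aldh1a2 were lower. The arrays of a layer were not alike in purity. The 38 epithelial genes listed had a summed intensity of 61600 in stroma 2, 225000 in stroma 1 and 570000 in stroma 3, against 27400 to 37700 in detrusor and 689000 to 977000 in urothelium. Of all arrays, stroma 3 was closest to urothelium 1 (Pearson's r of 0.904 across genes, which are not independent replicates). The 25 smooth muscle contractile genes summed to 182000 to 405000 in stroma, 908000 to 1330000 in detrusor and 835000 in urothelium 3. The Actb control probes at the 3' end were brighter than those at the 5' end, a ratio that grows with RNA degradation and with amplification. It was 2.27 to 7.49 in detrusor and 5 to 24.7 in stroma, whereas that of the Gapdh probes was 15.9 to 34.7 and 15.3 to 31.8. The part of RNA quality in the differences was not tested. Genes outside the naming rule, which include most of those that did not pass, were picked after their values were seen.

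Of the 13064 genes, 763 (5.84%) passed the limma test at an adjusted p under 0.05, 408 (3.12%) being higher in detrusor and 355 (2.72%) lower. Counts of called genes in the lists and groups below are to be read beside these shares. The arrays of the layers did not overlap for 3539 genes (27.1%), with detrusor above in 11.8% of all genes and below in 15.3%, and 2986 genes had an unadjusted p under 0.05. All 408 of the higher genes and 353 of the 355 lower ones were free of overlap. The higher genes had a median difference of 2.24 and the lower ones of -2.18, and 45 and 42 of them differed by more than 4 log2 units. In these bulk captures, fewer cells of a type and less RNA per cell cannot be told apart.

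The number of calls depended on single arrays and fell most when a detrusor array was left out. That number fell to 105 when detrusor 3 was left out, to 190 for detrusor 2, to 368 for detrusor 1 and to 402 for stroma 3. All 408 higher and 355 lower genes kept their direction in each of these fits. For nearly all of them, freedom from overlap fixes that direction in advance. The median difference of all genes was -0.16 as deposited, and centring the arrays on their medians moved it to 0.25. With that centring 591 genes were higher and 145 lower, so that 80.3% of the calls were higher in detrusor against 53.5% as deposited. Of the 122 called genes that the naming rule gives, 86, 71 and 44 lost their call when detrusor 3, 2 or 1 was left out, and 45, 29 and 18 when stroma 3, 1 or 2 was. Called in the fit as deposited and in all 19 alternatives were 74 genes, 44 higher and 30 lower. Among the 44 were Pygl, Gys1, Ppp1r3b, Prkaa2, Prkag2, Pdk4, Tmem38a, Srl, Stac, Ramp1, Foxp2, Hspb6 and Hspa1b, and among the 30 were Ptch1, Efemp1, Rarres1, Bmp2, Adamdec1, Cdc20, Chek1 and Incenp.

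**Figure D1:**
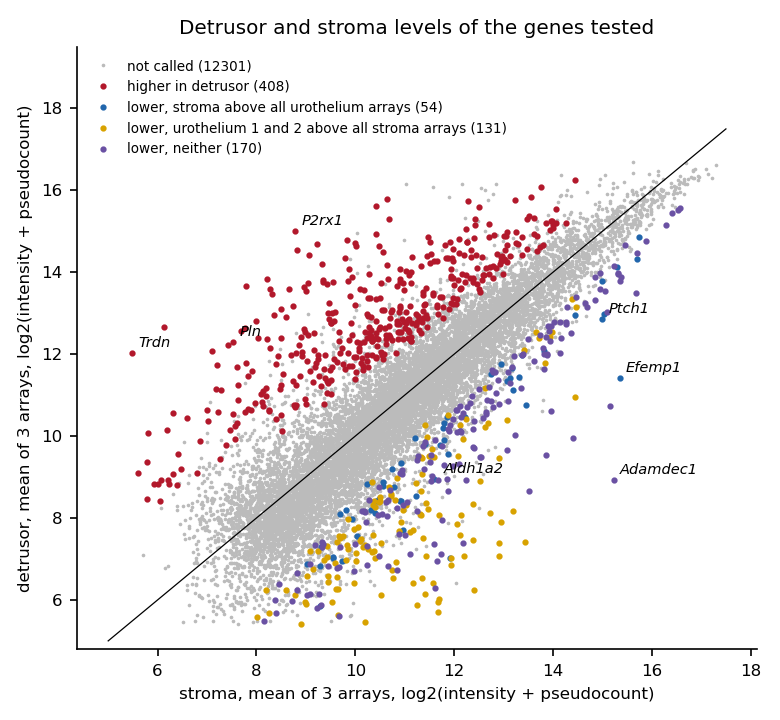
Mean log2 level of each of 13064 genes in detrusor (vertical axis) against stroma (horizontal axis), 3 arrays each, with the line of equal levels. Red points are the 408 genes called higher in detrusor, and the genes called lower are split into 54 whose stroma arrays all lie above urothelium (blue), 131 that urothelium 1 and 2 exceed (yellow) and the other 170 (purple).

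Genes of the sarcoplasmic reticulum were among the most different between the layers. Trdn, or triadin, which anchors the calcium release channel to its store, had levels of 11.57, 12.97 and 11.56 in the detrusor arrays and 5.64, 5.42 and 5.38 in stroma. All 3 stroma levels, and all 3 urothelium levels of 5.38 to 5.49, lie at the bottom of the scale. The difference was 6.55 ± 0.53 (SE, n = 3 per layer, adjusted p = 0.000314), and since the stroma side is a floor, its size depends on the added value. Pln, phospholamban, the brake on the calcium pump of the store, stood at 11.91, 13.56 and 11.41 in detrusor and 6.78, 7.02 and 8.79 in stroma. The difference of Pln was 4.77 ± 0.67 (adjusted p = 0.0053), with detrusor 2 the highest array and no overlap.

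Of 24 calcium store and calcium channel genes tested, 5 were higher in detrusor and none lower, with a list median of 0.98 against -0.16 for all genes. Without stroma 3 and urothelium 3 the number was again 5, and with any 1 detrusor array left out it was 2. Besides Trdn and Pln these were Casq1, the calsequestrin that binds calcium inside the store (3.64 ± 0.72), Jph2, a junctophilin that holds the store close to the surface membrane (2.82 ± 0.69), and Cacna2d1, an accessory subunit of voltage-gated calcium channels (2.72 ± 0.60). Casq1 had levels of 12.35 to 13.05 in detrusor and 8.49 to 9.40 in stroma. Further genes of the store were found among the calls after their values were seen. Tmem38a, a cation channel of the store membrane that balances charge during calcium release, was nearly constant within detrusor at 12.03, 11.99 and 12.04 and stood at 9.30, 8.64 and 8.49 in stroma (3.21 ± 0.39, adjusted p = 0.00244). Its relative Tmem38b (2.49 ± 0.54) and Srl, or sarcalumenin, a calcium-binding protein of the same store (3.40 ± 0.50), were higher as well. Stac, whose product helps voltage-gated calcium channels reach the membrane, had one of the 15 widest gaps between the layers, with 13.05, 13.21 and 13.05 in detrusor against 8.65, 7.82 and 9.01 in stroma. Slc24a3, a potassium-dependent sodium and calcium exchanger, was 24.6-fold higher (4.62 ± 1.01, adjusted p = 0.0271), but its call was lost in each fit that left out 1 array.

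**Figure D2:**
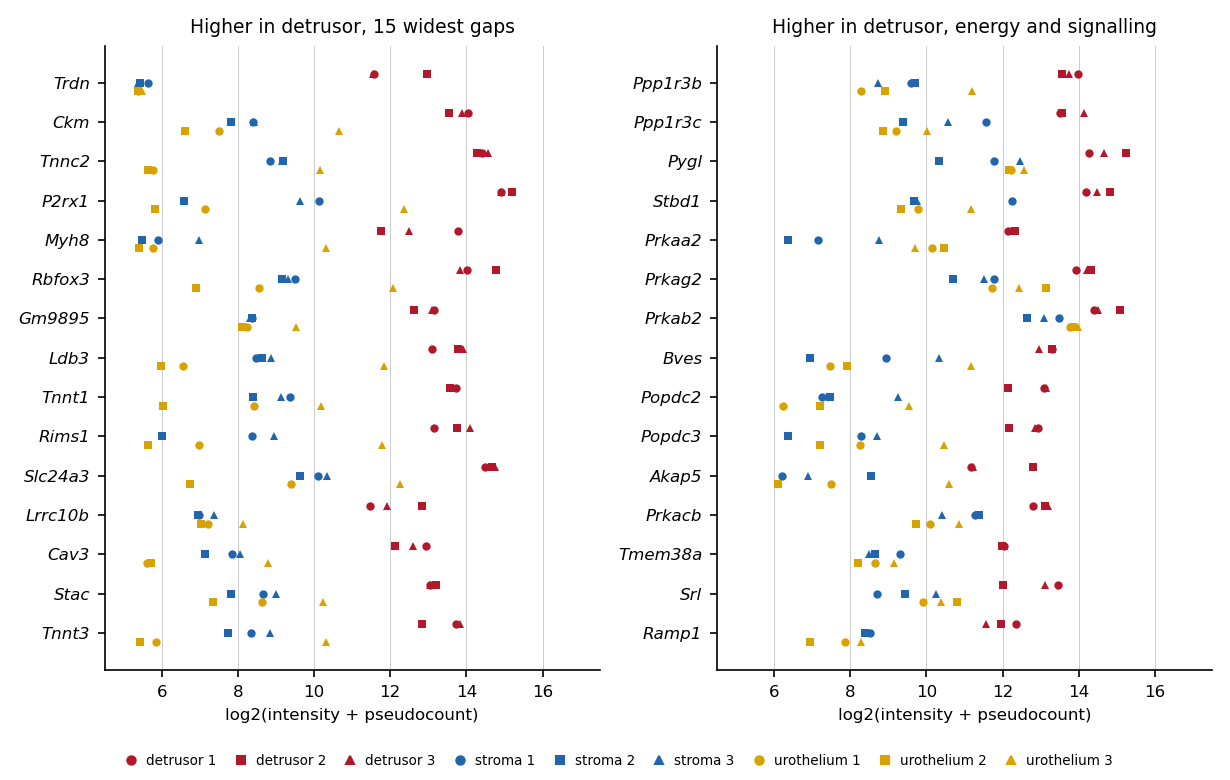
Log2 level of every array for the 15 genes with the widest gap among those higher in detrusor (left) and for 15 genes of energy use and signalling picked from the calls after their values were seen (right). Red marks are detrusor, blue stroma and yellow urothelium, with a circle, square and triangle for arrays 1, 2 and 3. No stroma mark reaches a detrusor mark, whereas urothelium 3 lies to the right of urothelium 1 and 2 for all 15 genes on the left.

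P2rx1, the ATP-gated receptor through which purinergic nerves excite the detrusor, had the highest detrusor levels of the widest-gap genes, 14.92, 15.19 and 14.92. Its stroma levels were spread, at 10.14, 6.58 and 9.63, with stroma 2 far below the others, and urothelium 3 reached 12.37. The difference was 6.23 ± 1.42 (adjusted p = 0.0301), and the call was lost without any 1 detrusor array, without stroma 2 and without stroma 3. Over its 19 alternatives the difference ran from 5.13 to 8.43 and the adjusted p from 0.00129 to 0.112. Among 18 contractility receptor genes tested, P2rx1 and Gnaq, the G protein subunit behind muscarinic receptors (1.46 ± 0.33), were the 2 called, and the list median was -0.19 as deposited and 0.23 with median centring. Ramp1, a partner protein of the receptor for the vasodilator peptide CGRP, was at 12.34, 11.96 and 11.57 in detrusor and 8.51, 8.39 and 8.41 in stroma (3.52 ± 0.44, adjusted p = 0.00252). Calcrl, the receptor subunit that Ramp1 accompanies, went the other way, with 8.50, 8.07 and 8.67 in detrusor against 11.14 and 10.12 in stroma 1 and 2 and slightly less in stroma 3 (-2.01 ± 0.47). Avpr1a, a vasopressin receptor, was also lower in detrusor (-2.19 ± 0.44). These 3 receptor genes were picked after their values were seen.

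Genes by which cyclic nucleotides relax smooth muscle were higher in detrusor in part. Of 23 tested, 5 were higher and none lower, with a median of 0.78. The number was 2 without stroma 3, with or without urothelium 3, 2 without detrusor 1, 0 without detrusor 2 and 1 without detrusor 3. Adcy5, an adenylate cyclase that makes cyclic AMP, was at 13.29, 13.74 and 13.25 against 10.18, 10.05 and 9.43 in stroma (3.54 ± 0.79). Mrvi1, the target of cyclic GMP-dependent kinase on the store's calcium release channel (3.0 ± 0.72), Vasp, a substrate of that kinase (1.67 ± 0.32), and Prkar1a, a regulatory subunit of the cyclic AMP-dependent kinase (1.41 ± 0.27), were also called. Another probe set of Prkar1a differed by -0.67, so its direction is not settled, and Pde3a, a cyclic nucleotide phosphodiesterase at 8.77 to 9.63 in detrusor, turned to -0.37 when dim probe sets were kept, where a brighter probe set stood for it. All 3 Popeye genes, which encode membrane proteins that bind cyclic AMP, were higher, with differences of 4.44 ± 0.97 for Bves, 4.81 ± 0.81 for Popdc2 and 4.87 ± 0.81 for Popdc3. Of 13 kinase anchoring genes of the Akap family 3 were higher, Akap5, Akap6 and Akap1, and of 6 subunit genes of the cyclic AMP-dependent kinase 2 were, Prkar1a and Prkacb (2.01 ± 0.39). Of all genes, 3.12% were called higher. Akap5 has another probe set that went the other way. The Popeye and Akap groups were formed after their values were seen.

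Genes named for striated muscle were prominent, and all 3 detrusor arrays carried several of them. Ckm, muscle creatine kinase, was at 14.05, 13.55 and 13.90 in detrusor and 8.40, 7.81 and 8.42 in stroma (5.62 ± 0.82, adjusted p = 0.00661), although a second, dimmer probe set differed by -0.27. Tnnc2, the calcium-binding troponin of fast fibres, was at 14.42, 14.28 and 14.56 against 8.83, 9.17 and 9.16 (5.36 ± 0.95). Tnnt1 and Tnnt3, the slow and fast troponins that bind tropomyosin, differed by 4.68 ± 0.81 and 5.15 ± 1.04. Myh8, the perinatal myosin heavy chain, differed by 6.55 ± 1.12, with the detrusor arrays at 13.79, 11.75 and 12.49 and those of stroma at 5.48 to 6.98. Ldb3, a protein of the Z-disc, was at 13.09, 13.79 and 13.90 against 8.48, 8.64 and 8.88.

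Other skeletal muscle genes did not share that pattern. Of 22 skeletal muscle genes listed, 14 were tested and 5 were higher in detrusor (Myh8, Ckm, Tnnt3, Tnnc2 and Casq1), with a median of 2.17, and the number was 3 without detrusor 1, 2 without detrusor 2 and 1 without detrusor 3. The summed intensity of the 14 was 128000 to 155000 in detrusor and 3700 to 13400 in stroma, but their median level was 12.33 in detrusor 1, 8.54 in detrusor 2 and 10.25 in detrusor 3. Myh3, the embryonic myosin heavy chain, was at 13.34 in detrusor 1 and at 8.19 and 7.74 in the other detrusor arrays, and Myl1, a fast myosin light chain, at 11.21 against 6.33 and 5.91. Myod1, which sets the skeletal lineage, was at 9.09, 6.09 and 6.60 in detrusor and 8.19 to 8.82 in stroma, and Tnni2, the fast inhibitory troponin, differed by -0.34 ± 0.59. Detrusor 1 thus stood apart for Myh3 and Myl1, and the part of skeletal muscle fibres in the differences of Ckm, Tnnc2 and Myh8 was not tested. Acta1, skeletal actin, reached 15.91, 16.27 and 16.10 in detrusor against 13.09, 9.14 and 12.49 in stroma (4.52 ± 1.78, adjusted p = 0.163), but actin genes are nearly identical in sequence and this value is uncertain.

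Of the 25 genes tested of the smooth muscle contractile list, 23 were higher in detrusor without overlap, against 11.8% of all genes, and none lower. The list held 12 called genes, all higher in detrusor, with a median of 3.37. Among those with the smallest adjusted p were Hspb6, a small heat shock protein of relaxing muscle (4.48 ± 0.51), Smtn, or smoothelin (4.22 ± 0.67), Pcp4, a calmodulin regulator (5.46 ± 1.03), and Ppp1r12b, a myosin phosphatase subunit (3.54 ± 0.54). Actg2, whose promoter the transgene is named for, was at 16.14, 16.74 and 16.27 in detrusor and at 15.32, 12.05 and 15.11 in stroma, and did not pass (2.22 ± 1.42, adjusted p = 0.381). Cnn1, or calponin (4.93 ± 1.56), and Tagln, or transgelin (3.14 ± 1.26), were higher without overlap and did not pass either. Their urothelium arrays were far apart, at 7.71, 5.90 and 13.23 for Cnn1 and 10.19, 9.67 and 15.29 for Tagln. The SE carries that spread. With the 6 detrusor and stroma arrays alone the list had 20 called genes, and without stroma 3 and urothelium 3 it had 18. It had 5 without detrusor 1, 4 without detrusor 2, 2 without detrusor 3 and 6 without stroma 2 or stroma 3.

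Proteins that tie the contractile machinery to the surface membrane were higher in detrusor in part. Of 26 caveola, dystrophin and sarcoglycan genes tested, 8 were higher in detrusor and none lower, with a median of 1.25. The number was 6 without stroma 3 and urothelium 3, 4 without detrusor 1, 3 without detrusor 2, 1 without detrusor 3 and 3 without stroma 3 alone. Cav3, the muscle caveolin, was at 12.94, 12.14 and 12.61 in detrusor and 7.85, 7.13 and 8.07 in stroma (4.88 ± 0.76, adjusted p = 0.00801). Sgca, alpha-sarcoglycan of the dystrophin complex, was at 11.58, 11.67 and 11.12 against 8.78, 8.05 and 6.66 (3.63 ± 0.62). Vcl, vinculin, which links actin to adhesion sites, was abundant in both layers, at 16.02, 16.52 and 16.24 against 14.33, 14.54 and 14.46 (1.81 ± 0.37). Ilk, integrin-linked kinase (1.81 ± 0.41), and its partner Parva, or parvin (2.43 ± 0.40), were called, as were Sspn, Tns1 and Fblim1. No stroma array reached a detrusor array for any of these that is given by array.

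Of 31 glycolysis and fatty acid genes tested, 7 were higher in detrusor and 1, the fatty acid binding protein gene Fabp5 (-1.13 ± 0.25), was lower, with a median of 0.47. Without stroma 3 and urothelium 3, 5 were higher and none lower, and the higher genes numbered 3, 2 and 2 when detrusor 1, 2 or 3 was left out and 4 for stroma 1. Gys1, muscle glycogen synthase, was at 12.43, 12.37 and 12.82 in detrusor and 10.08, 8.93 and 10.02 in stroma (2.86 ± 0.39, adjusted p = 0.00437). Pygb, the brain form of glycogen phosphorylase, which releases glucose from glycogen, was at 15 to 15.50 in detrusor against 12.55, 13.15 and 12.43 (2.46 ± 0.35). Slc2a4, the insulin-regulated glucose transporter (3.53 ± 0.80), Pfkp, a phosphofructokinase (2.90 ± 0.55), and Eno3, the muscle enolase (2.85 ± 0.58), were higher as well, together with Pfkm and Cpt2.

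More glycogen genes were picked from the calls after their values were seen. Ppp1r3b and Ppp1r3c, which bring protein phosphatase to glycogen, were at 13.57 to 13.97 and 13.51 to 14.14 in detrusor and at 8.73 to 9.71 and 9.40 to 11.57 in stroma, differing by 4.41 ± 0.64 and 3.23 ± 0.53. Pygl, the liver form of glycogen phosphorylase, was at 14.27, 15.25 and 14.67 against 11.77, 10.32 and 12.45 (3.21 ± 0.48), and Stbd1, which binds glycogen, differed by 3.95 ± 0.67. Of the 6 genes of AMP-activated kinase, the sensor of low cellular energy, 3 were higher, 1 of each type of subunit, and 1, Prkag1, was lower without overlap and did not pass (-0.60 ± 0.27). Its catalytic subunit gene Prkaa2 was at 12.14, 12.33 and 12.23 in detrusor against 7.16, 6.36 and 8.76 in stroma (4.81 ± 0.55, adjusted p = 0.00197). The regulatory subunit genes Prkag2 and Prkab2 differed by 2.83 ± 0.40 and 1.59 ± 0.29. For Prkaa2, urothelium at 9.71 to 10.46 lay between the other layers.

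Of 36 respiratory chain and creatine genes tested, 4 were higher in detrusor (Ckm, Ckb, Ndufa4 and Uqcrfs1), with a median of 0.43, and 14 of the 36 were higher without overlap (11.8% of all genes were). Without detrusor 1 the number called was 2, without detrusor 2 or 3 it was 1 and without stroma 3 it was 2. Ndufa4 was at 14.31, 14.93 and 14.86 against 13.31, 13.12 and 13.47 (1.40 ± 0.27). By complex, in groups formed after the values were seen, 5 of 42 Nduf genes, 4 of 8 Uqcr genes, 1 of 4 Sdh genes, 2 of 17 Atp5 genes and none of 15 Cox genes were called, all higher, against 3.12% of all genes called higher. Higher without overlap were 23 of the Nduf, 5 of the Uqcr, 2 of the Sdh, 9 of the Atp5 and 1 of the Cox genes. The complex III genes were Uqcr10, Uqcr11, Uqcrfs1 and Uqcrh, with differences of 1.32 to 1.79, and a further probe set of Uqcr10 differed by -0.71.

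Several genes better known from neurons were higher in detrusor. Rims1, which organises the release site of synaptic vesicles, was at 13.14, 13.75 and 14.09 in detrusor and 8.37, 6.01 and 8.96 in stroma (5.88 ± 1.30). Tenm2, a teneurin adhesion receptor, was at 14.52, 14.74 and 14.36 against 7.54, 7.56 and 11.37 (5.72 ± 1.29), with stroma 3 well above the other stroma arrays. Rbfox3, a splicing regulator known as the neuronal marker NeuN, was at 13.82 to 14.77 in detrusor against 9.50, 9.16 and 9.32 (4.87 ± 0.98). Gria1, a glutamate receptor subunit, was dim in detrusor at 7.88 to 8.89 and lost its call in 12 alternatives. Each of Rims1, Tenm2 and Rbfox3 lost its call without any 1 detrusor array, the first pair also without stroma 2 and Rbfox3 without stroma 3. Of 25 neuronal synapse and adhesion genes tested these 3 (Rims1, Tenm2 and Gria1) were called and the median was -0.13, which quantile normalization turned to 0.21. Of 12 neural and glial markers none was called (5.84% of all genes were), and their summed intensity of 5850 to 8810 in detrusor overlapped that of 7600 to 14600 in stroma. Gap43, a protein of growing axons, was higher without overlap, at 9.28, 8.65 and 8.36 against 7.54, 7.33 and 7.54, but did not pass (1.29 ± 0.60). The glial gene Sox10 was at 8.08 to 8.84 in detrusor and 8.93 to 9.57 in stroma.

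Ion channels of the membrane went both ways. Of 21 potassium, chloride and sodium channel genes tested, Kcnk3, a background potassium channel (10.80, 10.73 and 10.39 in detrusor against 6.65, 8.39 and 5.95, a difference of 3.64 ± 0.80), and Kcnma1, the large calcium-activated potassium channel (1.86 ± 0.43), were higher. Kcnk2, another background potassium channel, which opens with stretch, was lower, at 8.59, 8.89 and 7.75 in detrusor against 10.71, 11.25 and 10.76 in stroma (-2.50 ± 0.47, adjusted p = 0.0163). Kcnk2 in stroma also lay above all 3 urothelium arrays, which reached 10.52. Kcnk3 was not called without any 1 detrusor array or without stroma 1 or stroma 3, and Kcnk2 lost its call without detrusor 3. Kcnma1 was not called in 10 of 19 alternatives, and its 4 probe sets differed by 0.29 to 1.86. Over 45 potassium channel genes, a group formed after the values were seen, 5 were higher and 3 lower, against 3.12% and 2.72% of all genes.

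Of 43 mesenchymal transcription factor genes tested, 2 were higher in detrusor (Foxp2 and Meis1) and 2 lower (Tbx3 and Foxf2), a share of 9.3% against 5.84% of all genes. Srf, serum response factor, which drives contractile and adhesion genes through a motif called the CArG box, was at 13.87, 13.90 and 14.10 in detrusor and 12.88, 12.03 and 11.59 in stroma (1.79 ± 0.40, adjusted p = 0.028). It was the only called gene of 19 SRF and MEF2 regulators (5.26%), and it was not called without any 1 detrusor array or without stroma 2 or stroma 3. Its cofactor Myocd, or myocardin, was at 13.95, 12.44 and 13.19 against 10.44, 8.96 and 10.80 and did not pass (3.13 ± 0.95, adjusted p = 0.0818). Foxp2, a forkhead repressor, was at 13 to 13.93 in detrusor against 11.16, 9.08 and 10.27 (3.40 ± 0.50, adjusted p = 0.00688), with 5 probe sets that ranged from -0.45 to 4.13. Hoxd13, which patterns the hind end of the body, was at 13.29, 13.30 and 13.55 against 11.22, 10.05 and 9.52 (3.12 ± 0.61), a call lost without any 1 detrusor array or stroma 3, and Meis1, a Hox cofactor, differed by 1.54 ± 0.36.

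The RefSeq promoter windows of assembly GRCm38.p6, which run from 250 bases before to 50 bases after each annotated start, were searched on both strands. A window was found for 330 of the 408 genes higher in detrusor, 259 of the 355 lower and 10504 of all 13064. A CArG box stood in the windows of 16 of the 330 genes (4.85%), 5 of the 259 (1.93%) and 166 of all 10504 (1.58%). Genes had from 1 to 26 windows, and more windows give more chances of a match. The stretches below show the box, in capitals, before the starts of 5 detrusor-high genes from the groups above (a regulator, adhesion, a light chain of myosin, the Z-disc and glycogen) and, for contrast, of the stroma-high Lef1. The Srf stretch lies on the minus strand at chr17:46556210-46556269 and holds 2 boxes, the first 82 bases before the start. The others are at chr14:20929148-20929205 (plus strand) for Vcl, chr10:128493025-128493084 (minus) for Myl6, chr14:34588682-34588741 (minus) for Ldb3, chr5:92602990-92603049 (plus) for Stbd1 and chr3:131112666-131112725 (plus) for Lef1.
Srf: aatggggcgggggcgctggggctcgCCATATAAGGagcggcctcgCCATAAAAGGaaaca
Vcl: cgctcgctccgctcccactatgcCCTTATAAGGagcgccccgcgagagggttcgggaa
Myl6: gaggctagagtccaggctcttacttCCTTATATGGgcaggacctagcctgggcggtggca
Ldb3: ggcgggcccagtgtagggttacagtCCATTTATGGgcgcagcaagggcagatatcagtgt
Stbd1: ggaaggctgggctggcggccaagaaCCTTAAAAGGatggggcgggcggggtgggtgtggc
Lef1: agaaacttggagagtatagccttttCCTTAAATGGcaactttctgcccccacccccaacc
The box begins 227 bases before the start in Vcl, 50 in Myl6, 35 in Ldb3, 36 in Stbd1 and 100 in Lef1. Other letters searched were less uneven. CATTCC, a TEAD motif, was in a window of 17.3% of the higher genes, 15.1% of the lower and 14.7% of all, and CACGTG, an E-box, in 33 of the 330 higher genes, 11.2% of lower and 11.4% of all. GACCACCCA, a GLI motif, was in a window of none of the higher or lower genes and of 0.248% of all. A match is a description of the letters, not a site of binding.

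The 355 genes lower in detrusor were of unlike kinds when set beside urothelium. For 131 of them (36.9%, against 13.4% of all genes) urothelium 1 and 2 both lay above every stroma array, and for 54 (15.2%, against 13.3% of all genes) all stroma arrays lay above all urothelium arrays. The other 170 met neither order. The 54 genes with stroma on top are those whose stroma level the epithelium itself did not reach. These 54 shrank to 5 when detrusor 3 was left out, to 14 for detrusor 2, to 33 for detrusor 1 and to 9 with median centring, and grew to 96 when stroma 2 was left out. The 131 shrank to 72, 37 and 30 for detrusor 1, 2 and 3 and to 58 for stroma 3, and grew to 232 for stroma 2. When a stroma array was left out, both orders were judged on the stroma arrays kept, which are easier to satisfy, so these counts are not like for like.

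**Figure D3:**
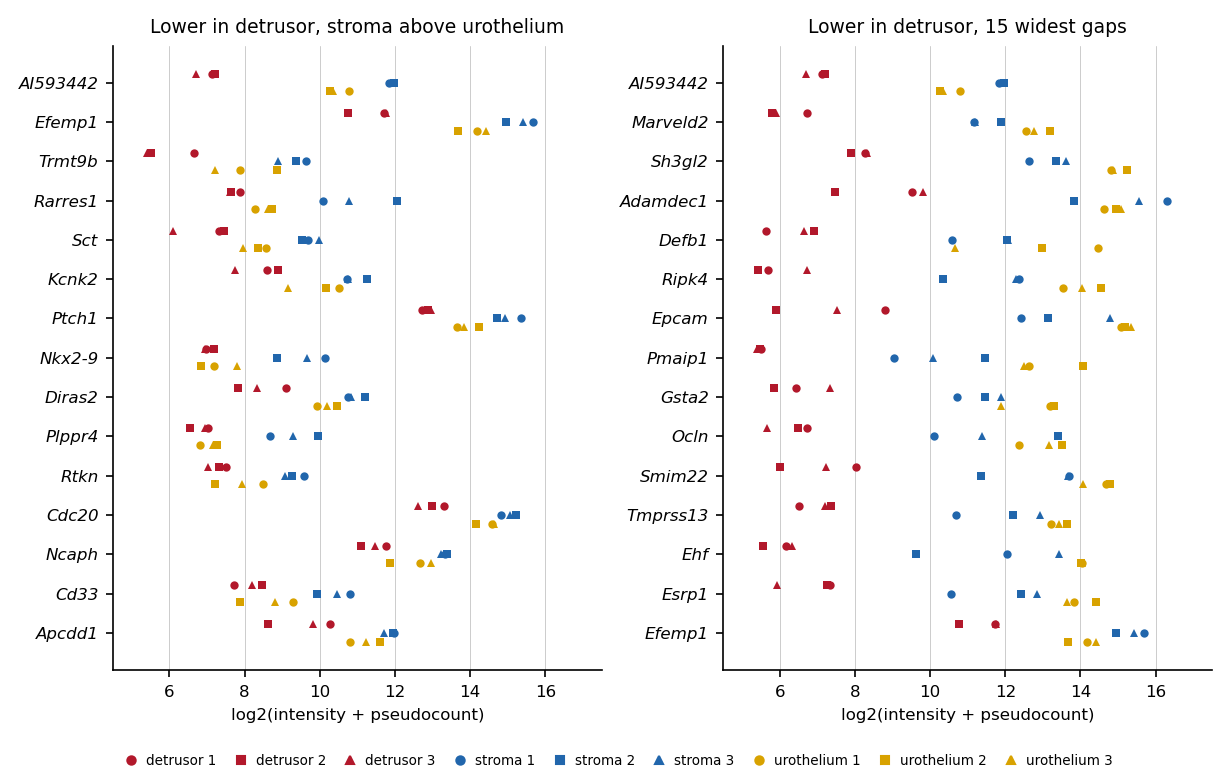
Log2 level of every array for the 15 genes with the widest gap among those lower in detrusor whose stroma arrays all lie above urothelium (left) and among all genes lower in detrusor (right), with colours and symbols for layers and arrays as in the plot of detrusor-high genes. On the left the blue stroma marks lie farthest right, and on the right the yellow urothelium marks do for most genes.

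Efemp1, a fibulin-like protein of the extracellular matrix, had the largest difference of the 15 widest-gap stroma genes after AI593442. Its levels were 11.71, 10.76 and 11.76 in detrusor, 15.68, 14.96 and 15.41 in stroma and 13.68 to 14.42 in urothelium, a difference of -3.94 ± 0.34 (15.4-fold, adjusted p = 0.000516). AI593442, a gene named only by a sequence identifier, had the widest gap, with 7.13, 7.21 and 6.71 in detrusor and 11.84, 11.96 and 11.97 in stroma (-4.91 ± 0.35). Rarres1, named for its induction by retinoids, was at 7.87, 7.65 and 7.61 against 10.08, 12.06 and 10.78 (-3.27 ± 0.51), with stroma 2 the highest array. Sct, which encodes the peptide secretin, was at 7.32, 7.46 and 6.10 against 9.68, 9.54 and 9.98 (-2.77 ± 0.49). Apcdd1, an inhibitor of Wnt signalling at the membrane, was at 10.28, 8.63 and 9.81 against 11.97, 11.94 and 11.71 (-2.30 ± 0.44), and was not called with median centring or without detrusor 3. Trmt9b, Nkx2-9, Diras2, Plppr4, Rtkn and Cd33 were dimmer genes of the same kind, with differences of -3.43 to -2.02, and all but Diras2 and Trmt9b lost their calls without stroma 3 and urothelium 3, and these 2 did so without detrusor 3. Cd33 is a surface receptor of myeloid cells. The 17 macrophage and leukocyte genes summed to 14600 to 122000 in stroma and 11500 to 27200 in detrusor, with none called (5.84% of all genes were), and their part in the Cd33 difference was not tested.

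Hedgehog signalling genes differed at the level of ligand and receptor. Ptch1, the receptor and itself a target of the pathway, was at 12.73, 12.87 and 12.95 in detrusor and 15.37, 14.71 and 14.92 in stroma, with urothelium at 13.64 to 14.23 (-2.15 ± 0.26, adjusted p = 0.00244). Its call held in all 19 alternatives. Shh, the ligand, was at 6.40, 5.68 and 5.52 in detrusor, 10.46, 8.70 and 14.59 in stroma and 15.16 to 15.60 in urothelium (-5.39 ± 1.11). Like the epithelial list, Shh was lowest in stroma 2 and highest in stroma 3, and the part of epithelial transcripts in its difference was not tested. Foxf2, a forkhead factor of the mesenchyme, was lower in detrusor (-2.38 ± 0.56, not called in 11 alternatives), and Cdon, a co-receptor, was higher (1.90 ± 0.47, not called in 12). Gli1, the other classical target, was at 9.74, 8.64 and 9.26 against 10.75, 9.63 and 10.04 and did not pass (-0.93 ± 0.45, adjusted p = 0.249). The transducers Gli2, Gli3 and Smo differed by 0.47, 1.12 and -0.34 without passing. In all, 3 of 16 Hedgehog genes were lower and 1 higher, with a median of -0.27 that median centring turned to 0.14, and 2 were lower without stroma 3 and urothelium 3, 1 without detrusor 2 or detrusor 3.

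Bmp2, Bmp5 and Bmp7, ligands of the BMP family, were lower in detrusor. Bmp2 was at 8.25, 8.31 and 7.69 in detrusor against 11.90, 10.74 and 12.41 in stroma (-3.60 ± 0.44, adjusted p = 0.00249), with urothelium higher at 12.71 to 13.30. Bmp7 was at 8.96, 8.12 and 8.11 against 10.85, 10.77 and 11.49 (-2.64 ± 0.42), a level that urothelium shared. Bmp5 was at 11.13, 7.32 and 10.19 against 13.52, 13.36 and 14.72 (-4.32 ± 0.82), so that detrusor 2 stood well below the other detrusor arrays. Id1, a direct target of BMP signalling, was lower too (-2.02 ± 0.43), while Id2, of the same family, was higher without overlap and did not pass (1.85 ± 0.49, adjusted p = 0.0541). Bmpr1a, a type I receptor, was higher in detrusor (1.26 ± 0.23). Bmp4 was at 11.34, 9.99 and 10.74 against 12.60, 10.77 and 11.78 and did not pass (-1.03 ± 0.52). Of 28 BMP genes 4 were lower and 1 higher, with a median of -0.11, or 0.30 with median centring, and without stroma 3 and urothelium 3, 2 were lower and 1 higher, and without detrusor 3, 1 was lower. Bmp5 lost its call without detrusor 3 and without stroma 3, and Bmp7 without detrusor 3. Of 21 TGF-beta pathway genes the receptor gene Tgfbr1 (1.26 ± 0.27) was the 1 called (4.76%, against 5.84% of all genes).

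Among Wnt genes the calls were on the stroma side. Lef1, a nuclear partner of beta-catenin, was at 8.05, 8.96 and 7.47 in detrusor and 11.72, 10.66 and 11.33 in stroma, with urothelium at 9.89 to 10.70 (-3.08 ± 0.48, adjusted p = 0.00797). Wnt4, a ligand, was at 9.08, 6.40 and 5.89 against 12.70, 9.70 and 12.82 (-4.62 ± 0.91), with urothelium at 12.69 to 12.96 and stroma 2 lowest. Wnt7b, an epithelial ligand (-1.70 ± 0.43, not called in 13 of 19 alternatives), and Apcdd1 were the other calls. Wnt7b was at 10.10 to 11.07 in stroma and 10.6 to 11.75 in urothelium. Wnt2, a ligand of mesenchyme, was at 11.64, 10.41 and 12.10 against 14.59, 12.54 and 12.85 and above urothelium, but did not pass (-1.94 ± 0.58, adjusted p = 0.0756). Of 41 Wnt genes 4 were lower and none higher, with a median of -0.29, or 0.12 with median centring, and 1 was lower without stroma 3 and urothelium 3 or without detrusor 3, 2 without detrusor 2 or stroma 3, and 7 without stroma 2. Wnt4 lost its call without detrusor 2, detrusor 3 or stroma 3. Ndp, which encodes the Wnt receptor ligand norrin, was lower too (-2.86 ± 0.58) and was picked after its value was seen.

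Retinoid genes gave 2 calls of 14, both lower in detrusor. Aldh1a2, the enzyme that makes retinoic acid in mesenchyme, was at 9.54, 8.13 and 9.15 in detrusor and 11.92, 11.17 and 11.93 in stroma (-2.73 ± 0.42, adjusted p = 0.00785), close to urothelium at 11.18 to 11.28. Rarres1 was the other call. The list median was -0.80, and both remained called without stroma 3 and urothelium 3, where Aldh1a2 differed by -2.60. Cyp26b1, which degrades retinoic acid, was at 8.74, 13.28 and 10.38 in the stroma arrays and did not pass.

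Other growth factor and cytokine lists had few calls. The shares called were 6.25% of Notch, 10% of FGF and EGF, and 4.55% of IGF and imprinted growth genes. For chemokine, cytokine and complement genes it was 4.17%, against 5.84% of all genes. Notch1 was lower in detrusor (-1.96 ± 0.46), the 1 called of 16 Notch genes. Erbb2 (-1.80 ± 0.39), Tgfa, a ligand of the EGF receptor (-2.12 ± 0.52), and Dusp6, a feedback phosphatase of the ERK kinases (-1.84 ± 0.47), were lower among 30 FGF and EGF genes, and none of these 3 was called with median centring. Igf2r, the clearance receptor of IGF2, was higher (1.44 ± 0.28) among 22 genes of IGF and imprinted growth. Il6st, the shared signalling receptor of the interleukin-6 family, was at 15.58, 16.30 and 15.61 against 13.66, 13.89 and 13.11 (2.27 ± 0.46, not called without detrusor 2, detrusor 3 or stroma 3), the 1 called of 24 chemokine, cytokine and complement genes. Lepr, the leptin receptor, picked after its value was seen, was lower, at 8.51 to 10 in detrusor against 12.69, 11.26 and 12.35 (-2.77 ± 0.52).

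Among Hox genes the calls went both ways. Hoxb5 was at 6.48, 5.83 and 6.11 in detrusor against 9.42, 8.63 and 9.75 in stroma (-3.13 ± 0.51, adjusted p = 0.0094), opposite to Hoxd13. These were the 2 called of 21 Hox genes, whose median was -0.93, with 9 of them lower without overlap (15.3% of all genes were) and 1 higher. Tbx3, a T-box repressor, was lower (-2.05 ± 0.49), and Efnb2, an ephrin ligand, was the 1 called of 33 axon guidance genes (-2.04 ± 0.32, with urothelium 1 and 2 above stroma). Nr4a1, an immediate-early nuclear receptor, was the 1 called of 21 nuclear receptor genes (-2.63 ± 0.59), with stroma 2 the highest array at 12.88. The shares called were 9.52% of Hox, 3.03% of axon guidance and 4.76% of nuclear receptor genes, against 5.84% of all genes.

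**Figure D4:**
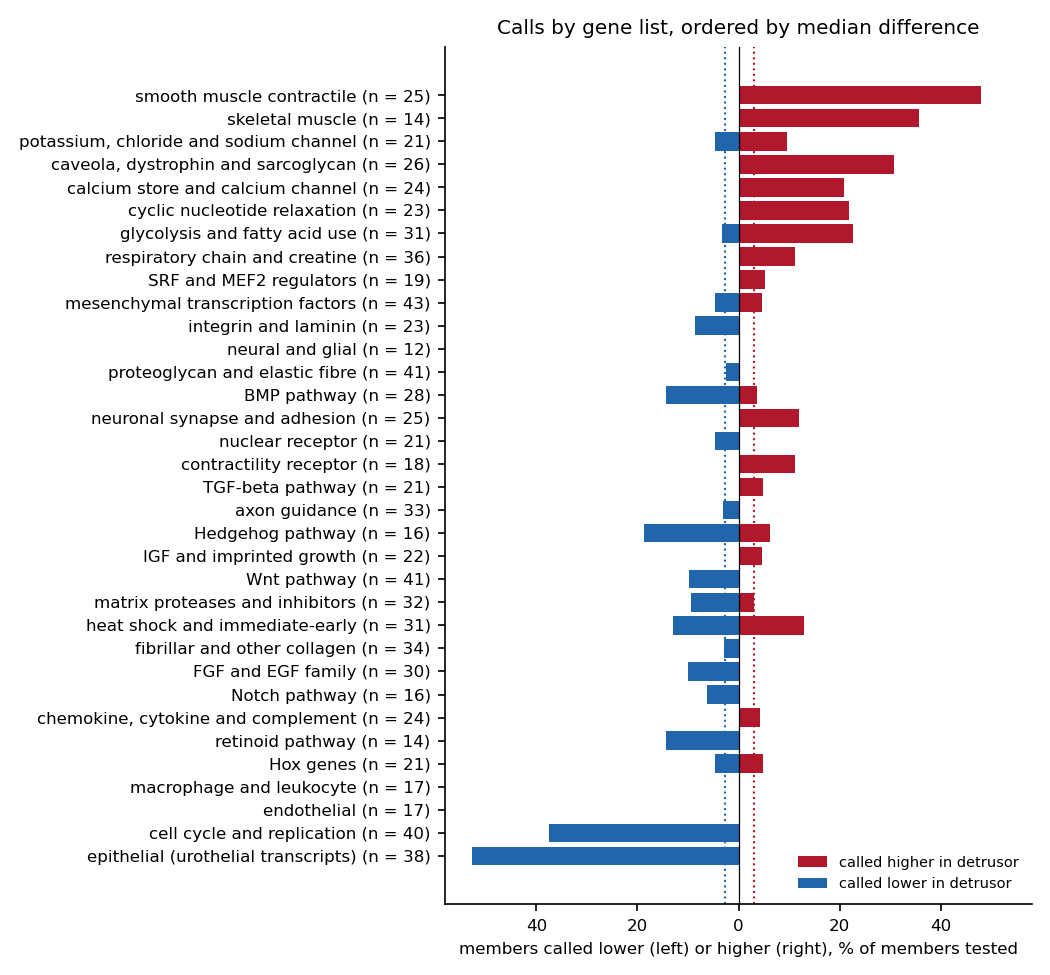
Share of the tested members of each list called higher in detrusor (right, red) or lower (left, blue), in percent, for lists with at least 10 tested members, ordered from the highest median difference at the top to the lowest. Dotted lines mark the shares of all genes, 3.12% higher and 2.72% lower; the bars of contractile genes (12 of 25) and epithelial genes (20 of 38) are the longest on either side.

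Genes of the cell cycle had lower levels in detrusor. Of 40 tested, 15 were lower and none higher, with a median of -1.25, and 24 were lower without overlap, against 15.3% of all genes. Their summed intensity was 175000 to 219000 in detrusor and 368000 to 461000 in stroma, with stroma 2 the highest. In urothelium it was 275000 to 385000, which overlapped stroma. Cdc20, an activator of the complex that starts anaphase, was at 12.62 to 13.29 in detrusor against 14.81, 15.22 and 15.06 in stroma and 14.16 to 14.64 in urothelium (-2.06 ± 0.26, adjusted p = 0.00255). Its call held in all 19 alternatives. Cdk1, the mitotic kinase, was at 11.52, 10.94 and 11.59 against 12.72, 13.61 and 12.86 (-1.71 ± 0.32), and Ncaph, a condensin subunit, at 11.75, 11.09 and 11.46 against 13.33, 13.38 and 13.23 (-1.88 ± 0.33). For these 3 genes stroma also lay above every urothelium array, an order that was part of the rule that named Cdc20 and Ncaph. It did not hold for Mcm4, Mcm5 and Ube2c, which were called lower in detrusor as well.

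The replication and mitosis machinery followed in groups formed after the values were seen. Of the 6 subunit genes of the replication helicase, Mcm2 to Mcm7, 5 were lower, by -1.87 to -1.44. A kinetochore and mitosis group of 48 genes was gathered by symbol, such as Cdca, Kif, Ska and Bub, rather than by known role. Of these 12 were lower, against 2.72% of all genes, and none higher. Ndc80, the outer kinetochore protein, differed by -2.01 ± 0.41, Kif23, a kinesin of cell division, by -2.10 ± 0.31 and Chek1, a checkpoint kinase, by -2.23 ± 0.33. Uhrf1 and Dnmt1, which copy DNA methylation at replication, differed by -1.89 ± 0.33 and -1.76 ± 0.40, and Ezh2, a histone methyltransferase, by -1.16 ± 0.29. In the cell cycle list, the 15 calls became 1 when detrusor 3 was left out, 3 for detrusor 2, 8 for detrusor 1 and 5 for stroma 3. Median centring left 2, with a median of -0.83. Cdkn1c, an inhibitor of the cycle, was at 13.49, 10.04 and 11.50 in detrusor against 14.56, 12.28 and 14.21 and did not pass (-2.01 ± 0.85).

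Of 34 collagen genes 1 was called, Col18a1 (-1.49 ± 0.35), of 41 proteoglycan and elastic fibre genes 1, Efemp1, and of 23 integrin and laminin genes 2, Itga4 (-2.65 ± 0.50) and Itga6 (-1.65 ± 0.35), all lower in detrusor. The shares called were thus 2.94%, 2.44% and 8.7%, against 5.84% of all genes. On the other side, 8 of the 23 integrin and laminin genes were higher in detrusor without overlap, against 11.8% of all genes. Itgb3, an integrin beta subunit, was the farthest apart of them, none of which passed, at 14.43, 14.09 and 14.44 against 9.81, 10.15 and 9.70 (4.44 ± 1.30, adjusted p = 0.0727). Its urothelium arrays were far apart, at 8.46, 5.63 and 12.77, and the SE carries that spread. Col3a1, the main reticular collagen, was at 16.32, 17.03 and 16.53 in detrusor and 17.54, 16.92 and 17.44 in stroma, so that the layers overlapped. Dcn, the proteoglycan decorin, was at 13.65 to 15.15 against 14.45 to 15.80. The median differences of these lists, -0.39, -0.05 and -0.02, turned positive with median centring. Enzymes that cut the matrix gave 4 calls of 32. Adamdec1, a metalloprotease-like protein, had the largest difference of the enzymes, at 9.52, 7.48 and 9.80 against 16.31, 13.83 and 15.55 (78.6-fold lower, -6.30 ± 0.67, adjusted p = 0.0017), with urothelium at 14.63 to 15.07. Mmp2, a gelatinase, was at 14.41, 14.60 and 13.97 against 16.27, 15.64 and 15.18, above all urothelium arrays (-1.37 ± 0.30), and Htra1, a serine protease, was ordered alike (-1.18 ± 0.27), and neither was called with median centring or without any 1 detrusor array. Mmp16, a membrane-bound protease, was higher in detrusor (2.44 ± 0.50).

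Of 31 heat shock and immediate-early genes tested, 4 were higher in detrusor and 4 were lower, with a median of -0.37 that median centring turned to 0.04. Hspa1b was at 14.55, 15.09 and 14.56 against 11.89, 12.40 and 12.51 (2.46 ± 0.27, adjusted p = 0.00188), and Hspa1a, a near-identical copy that may share transcripts with it, differed by 1.98 ± 0.46. The small heat shock genes Hspb1 and Hspb8 differed by 1.69 ± 0.31 and 2.82 ± 0.54. Lower were Dnajb1, an HSP40 co-chaperone (-1.39 ± 0.34), and the immediate-early genes Fosl2 (-1.29 ± 0.25), Ier2 (-1.23 ± 0.30) and Nr4a1. With median centring 5 were higher and none lower, and without stroma 3 and urothelium 3, 4 were higher and 1 lower. When detrusor 3 was left out 1 was higher and none lower, and when detrusor 2 was left out 2 were higher and 1 lower.

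Genes of the epithelium were lower in detrusor. Of 38 listed genes tested, 20 were lower in detrusor and none higher, with a median of -3.17, and 12 were called without stroma 3 and urothelium 3, where the median was -2.43. The 20 became 8 for detrusor 2 left out, 9 for detrusor 3 and 13 for stroma 3 alone. The median level of the list was 11.10, 9.30 and 12.75 in stroma 1, 2 and 3, 6.83 to 7.99 in detrusor and 13.80 to 14.46 in urothelium. Epcam, an epithelial adhesion protein, was at 12.41, 13.14 and 14.78 in the stroma arrays and 5.91 to 8.81 in detrusor, and Ripk4, a kinase of epithelial differentiation, at 12.36, 10.35 and 12.29 against 5.41 to 6.74. The tight junction genes Marveld2, which is not on the list, and Ocln, which is, were highest in stroma 2 among the stroma arrays, at 11.89 and 13.39, unlike most of the list. Upk1b, a uroplakin, was at 12.52, 10.25 and 15.97 and did not pass (-3.43 ± 1.09, adjusted p = 0.0932). Among genes of the other widest gaps on this side that are not on the list, Defb1, a defensin, Gsta2, a glutathione transferase, Sh3gl2, an endophilin, Pmaip1, a pro-apoptotic factor, and Tmprss13, a membrane protease, had urothelium 1 and 2 above every stroma array. For Marveld2, Smim22, Ehf and Esrp1 the same order held, but not for Ocln, with urothelium 1 at 12.37. The share of these differences that urothelial transcripts in the stroma captures make up was not tested.

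Lists of other cell types were short. None of 17 endothelial, 8 pericyte, 17 macrophage and leukocyte or 12 neural and glial genes was called. With 5.84% of all genes called, lists of this size would hold few calls in any case. Their median differences were -1 for endothelial, 0.17 for pericyte, -0.96 for macrophage and leukocyte and -0.03 for neural and glial genes. Pericyte genes summed to 39500 to 55300 in detrusor and 25000 to 63800 in stroma. Endothelial genes summed to 18000 to 52300 in detrusor and 33700 to 78800 in stroma, and Esam, an endothelial junction gene, was at 12.97, 10.52 and 11.11 against 13.41, 12.26 and 13.30 (-1.46 ± 0.62). Csf1r, the receptor that macrophages depend on, was at 12.42, 11.78 and 12.01 against 15.27, 12.59 and 14.39 and came close to the threshold (-2.01 ± 0.55, adjusted p = 0.0602). Nt5e, an enzyme that makes adenosine, was the 1 called of 7 interstitial cell genes and was higher in detrusor, at 12.52, 12.83 and 13.43 against 9.85, 10.69 and 10.21 (2.68 ± 0.61), while Kit, the classical interstitial cell marker, differed by -0.19 ± 0.55. The list median was -0.74, and Pdgfra, a growth factor receptor of interstitial cells, was lower without overlap, at 13.70, 13.90 and 12.97 against 14.39, 15.10 and 13.92, but did not pass (-0.95 ± 0.37). The Nt5e call was lost in every fit without 1 array but that without stroma 2. Krt19, on the mesothelial list but also abundant in urothelium, was the 1 called of 5 mesothelial genes (-4.54 ± 1.02). The mesothelial factor Wt1 was at 7.87, 12.53 and 10.51 in stroma against 5.52 to 7.56 in detrusor and did not pass.

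**Figure D5:**
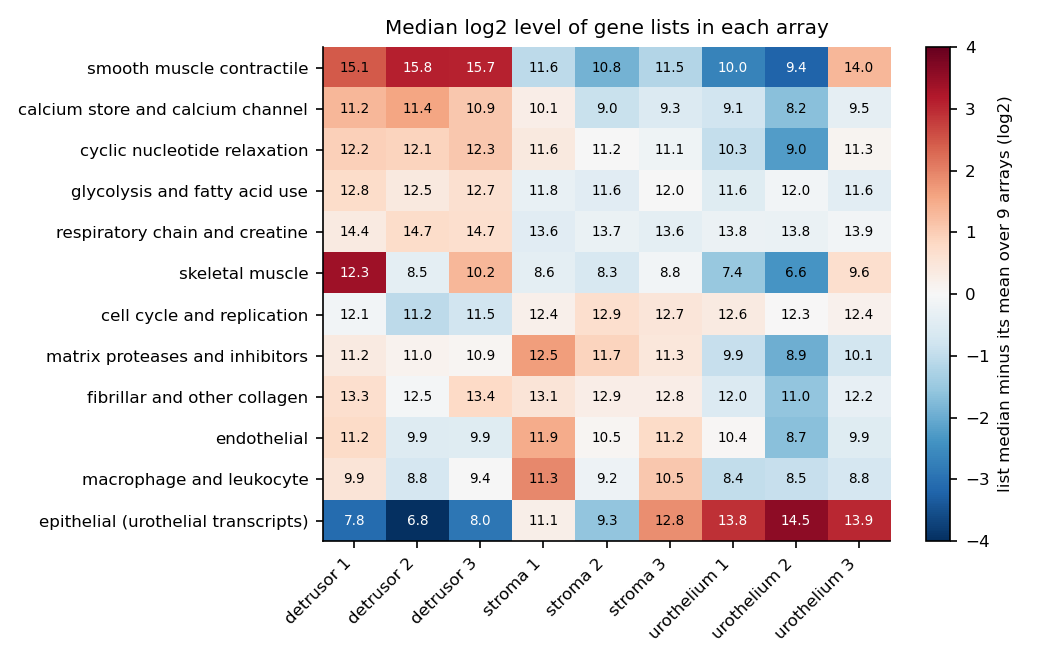
Median log2 level of 12 gene lists (rows) in each of the 9 arrays (columns), printed in each cell; the colour shows the deviation from the mean of the list over the 9 arrays. Stroma 3 carries the highest epithelial median of the stroma arrays (12.75) and stroma 2 the lowest (9.30), detrusor 1 the highest skeletal muscle median (12.33), and the macrophage list peaks in stroma 1 (11.34).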

How the data were processed

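The authors deposited intensities of probe sets on a linear scale, made with the Affymetrix program GCOS, as named in the submitters' processing notes. Which version, algorithm and scaling target they used is not given in the sources used here. A 2% trimmed mean came to 1500 on every array, so arrays were scaled before deposit. The table holds no detection calls, so low values say nothing of absence. The median intensity was 191.7 to 213.4 in detrusor and 232.9 to 388.4 in stroma, and the number of arrays limits the precision, with a median SE of 0.45 log2 units. Of 45101 probe sets, 34945 had 1 gene symbol in the platform annotation, 932 several and 9160 none, and 64 were controls. No column was left unused.

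Intensities were taken as log2(intensity + 39.34), 22207 probe sets that reached the median of an array on 3 or more of 9 arrays were kept, and the brightest probe set stood for its gene. The test was that of limma 3.58.1 (R 4.3.3; lmFit, then eBayes with a trend), in 1 fit over 9 arrays with layer as the only term, and Benjamini-Hochberg adjustment over all genes. In simulated data with 13064 genes and independent normal noise, 50 genes were changed at each of 4 sizes. Of differences of 1, 2, 3 and 4 log2 units, 8%, 38%, 72% and 84% were recovered, and 0.0466% of unchanged genes were called. The adjusted p depends on the share of changed genes. With 763 calls in the comparison itself, these rates need not hold for it.

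The comparison, the lists and the named genes were chosen with earlier results of these data known. The rule names Actg2 and the 5 markers, the 15 called genes with the widest gap between layers in each direction and among those with stroma above urothelium, and in each list the 5 called members with the smallest adjusted p in each direction, or the 2 brightest where none was called; other genes were picked after their values were seen. The alternatives were other normalizations, added values, filters and probe set rules, the 6 arrays alone, array weights, day as a covariate and arrays left out. Where leaving out arrays left few in a layer, the spread came from the other layers. Promoter windows are from RefSeq, assembly GRCm38.p6.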

Additional observations from a re-analysis of the deposited data

Results flagged for a closer look

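Slc4a1, the anion exchanger of red blood cells and 1 of the 2 erythroid genes tested, moved in opposite directions on the 2 days. On day 1 both detrusor arrays (9.09 and 7.82) lay above the stroma array (6.20), a difference of 2.25, and on day 2 the detrusor array (5.94) lay below both stroma arrays (7.09 and 9.72), a difference of -2.46. With 1 array in a layer on each day, the difference between the days was not tested.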

How the results depend on the processing

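No paired analysis was possible because the labels give the arrays no replicate numbers and the numbers used here only follow the order of deposit. Leaving out each array in turn gave 105 to 851 calls, 58 to 374 higher, 47 to 477 lower, 5 to 96 lower with stroma above urothelium and 30 to 232 lower with urothelium still higher. Of the lower genes, these last groups included, median centring called 145, 9 and 86, and the 6 arrays alone 213, 33 and 70. Without stroma 3 and urothelium 3 there were 428 calls, 126 lower and 44 with urothelium still higher. Without stroma 1, stroma 3 and urothelium 3, which leaves 1 stroma array with its spread taken from the other layers, 229 lower genes had stroma on top and 39 urothelium. The cause of these shifts was not tested, beyond the smaller number of arrays. Where a stroma array was left out, the order against urothelium was judged on the stroma arrays kept, a looser rule. Under the other alternatives all 5 counts stayed within 1.5 times their value. Of 122 called genes among the 135 named, 31 kept their call in all 19 alternatives. Over all named genes and alternatives 462 outcomes lost the call, 14 gained it and 1 reversed, that of Pde3a without a filter on dim probe sets (-0.37, adjusted p = 0.726).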
